A study of Mus musculus with 24 samples.

Results

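The 10 genes described here encode subunits of the transcription factor NF-kappaB, though not every one, and regulators that curb or shape its response. They were taken by gene name from the deposited count table, where all 10 (Nfkb1, Nfkb2, Rela, Relb, Nfkbia, Nfkbie, Nfkbiz, Tnfaip3, Bcl3 and Zfp36) were found among 55416 rows. All 10 also passed the filter on low counts, which left 17736 genes to be tested. Polyadenylated cerebellar RNA came from 24 neonatal C57BL/6J mice in a model of alcohol exposure during the third trimester. The 12 Ethanol animals were gavaged daily with ethanol in intralipid from P4, and the 12 Control animals, labelled Vehicle, received intralipid with water in its place. Animals of both groups were perfused and dissected on P5 or P6, 24 hours after their last dose, and no handled-only group was sequenced. The labels give a treatment and an animal number but no age, sex or litter, so every comparison pools P5 with P6 and males with females. The labels call the tissue brain and the study's methods call it cerebellum. Genes of cerebellar cells were well expressed, with Car8 of Purkinje cells at 407 ± 25.2 CPM (counts scaled to library size) in Ethanol and 459 ± 23.2 CPM in Control animals (SD, n = 12 each).

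NF-kappaB is a dimer of Rel proteins. In resting cells it is held in the cytoplasm by inhibitors of the IkB family or by the unprocessed precursors p105 and p100, which Nfkb1 and Nfkb2 encode. Signals from cytokine and pattern recognition receptors activate the IKK kinases, the inhibitor is degraded, and the dimer enters the nucleus. Among the genes it transcribes there are its own inhibitors, so their transcripts are widely used as a readout of the pathway. In the brain the pathway is best known from the inflammatory responses of microglia and astrocytes.

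The libraries held 26982564 to 38804942 counts in Ethanol animals (median 32756334) and 29039888 to 38696615 in Control animals (median 32396077). Choroid plexus RNA was nearly missing from 4 libraries (X4568 and X4766 of the Ethanol group, X4761 and X4770 of the Control group), in which Ttr stood at 1.15 to 3.57 CPM, against 322 to 5049 CPM in the other 20. Ordered by number, the animals fall into 6 runs of 4 close numbers with 2 Ethanol and 2 Control animals in each. The study took a male and a female per treatment out of every litter, with 6 litters in all, which gives sets of the same makeup. Litter membership by animal is not given in the labels or the methods, so whether a run is a litter is not known and runs serve as a technical grouping. Each library is from its own animal by label, and the p-values measure the spread between these animals. The main fit treats the animals as independent although littermates are among them. Differences between litters and between ages are thus part of that spread. In RNA of whole tissue, fewer cells of a type and less RNA per cell cannot be told apart.

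Ethanol animals had significantly higher levels of 6 of the 10 transcripts than Control animals and lower levels of 0 (edgeR, adj. p under 0.05 over all genes tested). Over all 17736 genes, 9.07% were called higher, 5.80% lower and 14.9% in either direction. Of all calls 61.0% were higher in Ethanol, and 49.6% were with upper-quartile scaling. The transcripts called were Zfp36, Bcl3, Nfkbiz, Nfkbie, Nfkbia and Nfkb1, that is 5 inhibitors or feedback regulators and 1 subunit. The log2 fold changes of the 6 ran over a wide range, from 0.09 for Nfkb1 to 0.75 for Bcl3. Nfkb2, Relb, Rela and Tnfaip3 did not pass. All 10 fold changes were above 0, with a median of 0.19 on the log2 scale, beside a median of -0.01 over all genes tested. Only Zfp36 was called in all 39 other settings and subsets of the data. The count of 6 fell to 3 without Ethanol X4760, to 2 without Control X4677 and to 3 without Ethanol X4569, Control X4679 or Control X4686.

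**Figure D1:**
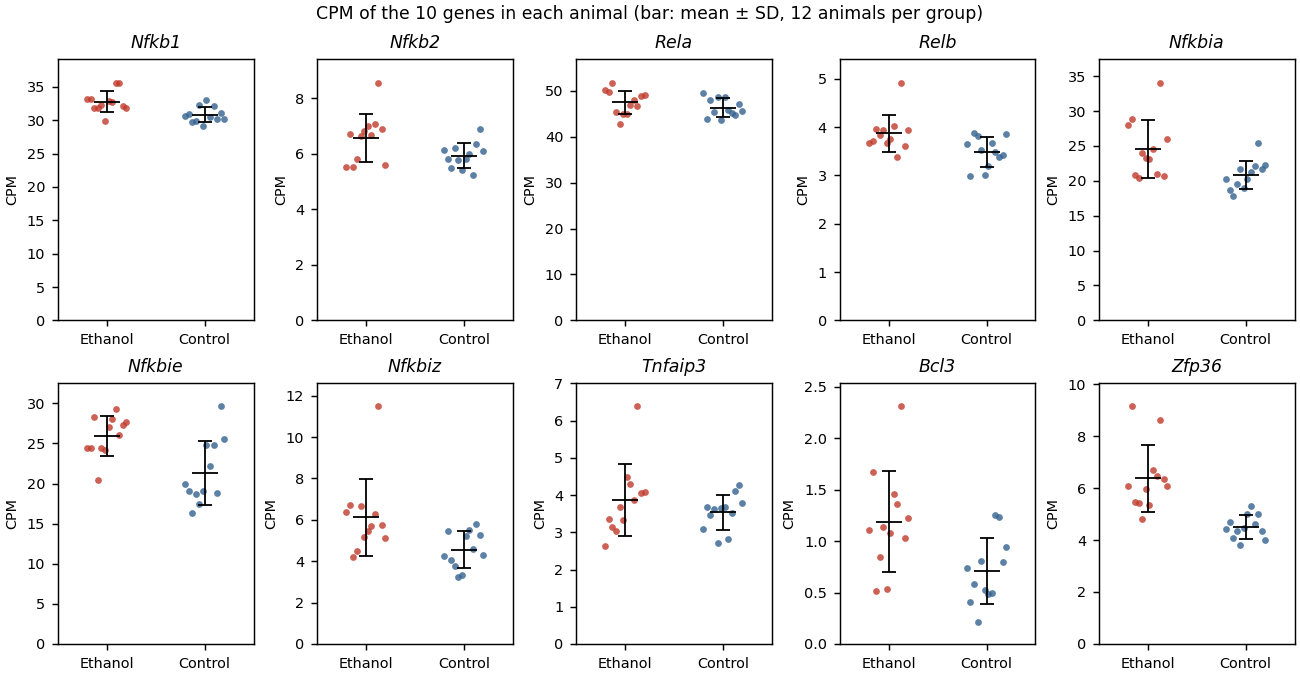
CPM of each gene (vertical axis, from 0) in each animal, with Ethanol left of Control, 1 point per animal and the mean ± SD of 12 animals as bars. The groups of Zfp36 nearly separate, with 11 of 12 Ethanol animals above every Control animal, while those of Rela lie over each other and Ethanol X4760 stands apart at the top of Nfkbiz (11.5 CPM) and Bcl3 (2.31 CPM).

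**Figure D2:**
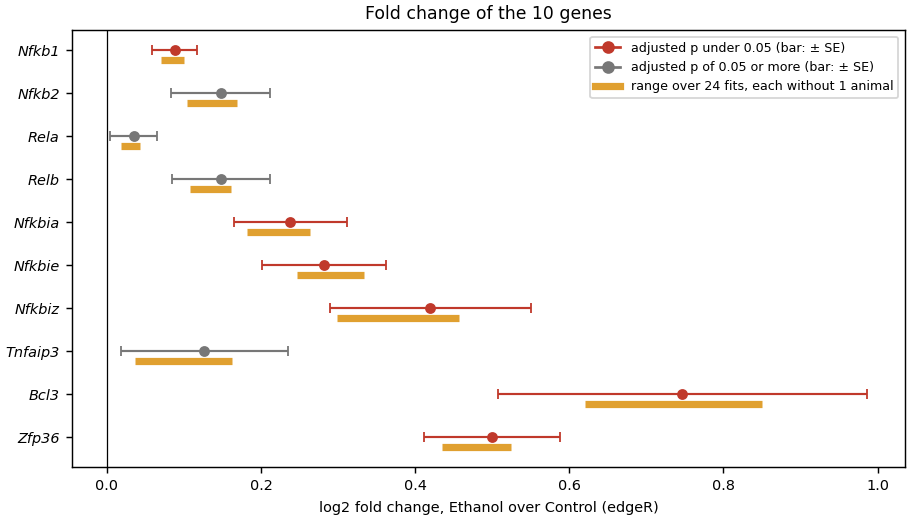
Log2 fold change of Ethanol over Control from edgeR (horizontal axis) for each gene, with bars of ± 1 SE and, below each, the range over 24 fits that each left out 1 animal. Red marks the 6 genes past the test, of which Bcl3 has the largest estimate (0.75) and the widest SE (0.24), and all ranges stay right of 0.

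The promoters are shown because NF-kappaB binds kappaB sites in its own inhibitors' genes. RefSeq promoter windows on the mouse build GRCm38.p6, 250 bases before to 50 bases after a start site, were at hand for 7 of the 10 genes. Those of Nfkb1, Relb and Nfkbiz were not analysed here. The kappaB consensus, searched on both strands, was found in the windows of 5 of the 7 genes (Nfkb2, Nfkbia, Nfkbie, Tnfaip3 and Bcl3), and no match lay in the single windows of Rela and Zfp36. In Zfp36 the part of the window before the start site lies in GENCODE M21 transcripts of the gene. The region before the start of those transcripts was not searched. It occurs in 8.46% of all 32851 windows and in 9.55% of the 27025 genes that have one. A looser pattern, GGG and CC with 5 free bases between them, takes in every consensus match and occurs in 50.8% of windows. In the stretches of 30 bases below, written along the strand of the gene, the 10 bases that match are in capitals. Positions are counted from the start site, with the base before it as -1.
Nfkbia (chr12:55492657-55492686, minus strand, match at -29 to -20): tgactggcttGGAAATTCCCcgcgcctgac
Nfkbie (chr17:45555584-45555613, plus strand, match at -106 to -97): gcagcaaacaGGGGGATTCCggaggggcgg
Bcl3 (chr7:19822734-19822763, minus strand, match at 2 to 11 after the start): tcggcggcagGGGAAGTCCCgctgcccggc
Tnfaip3 (chr10:19015403-19015432, minus strand, match at -12 to -3): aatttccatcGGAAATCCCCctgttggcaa
Nfkb2 (chr19:46304688-46304717, plus strand, match at -39 to -30): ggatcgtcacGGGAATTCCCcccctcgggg

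The matches of Nfkbia and Tnfaip3 shown read as the consensus on the opposite strand. Tnfaip3 held another match at -125 to -116. The 3 windows of Nfkb2 held further ones, of which that at -11 to -2 lies closest to a start site (ggggccgaaaGGGGCTTTCCcggctggagc, chr19:46304716-46304745). That match is in the same window as the Nfkb2 match shown above, where the bases before the start site used lie in transcripts of the gene. For the 2 classical inhibitors past the test, the 150 bases before the start are given in full, again with the match in capitals. In them the match of Nfkbia lies closer to the start site used than that of Nfkbie. The bases just after the Nfkbie start site were found in no GENCODE M21 transcript of the gene, so its distance is less sure.
Nfkbia (chr12:55492648-55492797, minus strand): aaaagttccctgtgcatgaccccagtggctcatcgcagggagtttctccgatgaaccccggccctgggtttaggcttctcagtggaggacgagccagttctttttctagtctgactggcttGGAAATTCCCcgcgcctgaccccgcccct
Nfkbie (chr17:45555550-45555699, plus strand): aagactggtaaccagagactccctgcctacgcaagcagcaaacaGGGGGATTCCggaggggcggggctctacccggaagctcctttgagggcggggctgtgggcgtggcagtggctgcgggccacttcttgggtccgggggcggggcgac

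Per kilobase of exon (GENCODE M21 on GRCm38, all exons of a gene merged), Rela and Nfkbia were the most abundant of the 10. Rela had 15.5 ± 0.850 CPM per kb in Ethanol and 15.1 ± 0.649 in Control animals (SD, n = 12 each). Nfkbia had 15.3 ± 2.55 in Ethanol and 12.9 ± 1.28 in Control animals. Nfkbie followed with 8.52 and 7.01, Nfkb1 with 2.72 and 2.55, Zfp36 with 1.84 and 1.30, Nfkb2 with 1.43 and 1.29, Nfkbiz with 1.22 and 0.909, Relb with 0.996 and 0.898, Tnfaip3 with 0.535 and 0.489 and Bcl3 with 0.481 and 0.286 CPM per kb in Ethanol and Control animals. The order was the same in both groups. Some neighbours in it differed by less than the larger SD of the pair. In Ethanol animals these were Rela and Nfkbia, Nfkb2 and Nfkbiz, Nfkbiz and Relb, and Tnfaip3 and Bcl3, and in Control animals Zfp36 and Nfkb2, and Nfkbiz and Relb.

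Among the subunits in this set, Nfkb1, which encodes p105 and its product p50, was the only one past the test. Its level was 29.9 CPM in the lowest Ethanol animal, 32.5 in the median and 35.6 in the highest, against 29.2, 30.6 and 33.1 CPM in Control animals. The groups overlapped, but 11 Ethanol animals exceeded the Control median and 4 exceeded every Control animal. The log2 fold change was 0.09 (SE 0.03, adj. p = 0.0401), a difference in mean of 6.28%. The call was lost in 15 of the 24 fits that each left out 1 animal (Ethanol X4568, X4569, X4681, X4692, X4694, X4758 and X4760, Control X4570, X4571, X4677, X4679, X4686, X4697, X4762 and X4770), with adj. p between 0.0513 and 0.101, with upper-quartile scaling (adj. p = 0.0818), without a filter on low counts (adj. p = 0.0980), without the 4 libraries low in Ttr (adj. p = 0.0674) and in 5 of the 6 fits without a run (all but run 3, adj. p between 0.0602 and 0.148).

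Rela, the transactivating partner of p50 in the classical dimer, had 42.8, 47.6 and 51.8 CPM in the lowest, median and highest Ethanol animal and 43.6, 45.6 and 49.5 CPM in Control animals. The highest and the lowest of all 24 animals were both Ethanol. Its log2 fold change was 0.03 (SE 0.03, adj. p = 0.493), with a 95% interval from -0.03 to 0.10, so a change of the size seen in Zfp36 lay outside the interval.

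Relb and Nfkb2 form the dimer of the alternative pathway. Relb had 3.38, 3.80 and 4.92 CPM in the lowest, median and highest Ethanol animal, against 2.99, 3.50 and 3.88 CPM in Control animals. In 11 of the 12 Ethanol animals it exceeded the median of the Control group. Nfkb2 had 5.53, 6.70 and 8.55 CPM in Ethanol animals, against 5.21, 5.91 and 6.87 CPM in Control animals, with 8 Ethanol animals over the Control median. Neither passed the test. The log2 fold change was 0.15 for Relb (95% interval 0.02 to 0.28, adj. p = 0.119) and 0.15 for Nfkb2 (0.01 to 0.28, adj. p = 0.125). All 24 deposited values of Nfkb2 were fractional. Its exons overlap those of AC114539.1 and Psd on the other strand, and without the strand setting their reads cannot be told apart here.

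Nfkbia and Nfkbie encode IkB-alpha and IkB-epsilon, which bind NF-kappaB dimers and keep them in the cytoplasm, and both were significantly higher in Ethanol animals. Nfkbia had 20.4, 23.7 and 34.0 CPM in the lowest, median and highest Ethanol animal, against 17.8, 20.8 and 25.4 CPM in Control animals. Of the Ethanol animals, 10 exceeded the Control median and 4 every Control animal, whereas 6 Control animals lay below every Ethanol animal. On the log2 scale the fold change was 0.24 (SE 0.07, adj. p = 0.0283), or 17.9% in the means. Without Ethanol X4760 it was 0.18 (adj. p = 0.0510), and without Ethanol X4568 (adj. p = 0.0598), Ethanol X4569 (adj. p = 0.0586) or Control X4677 (adj. p = 0.0577) the call was lost as well. So it was without run 1, 3 or 4 (adj. p between 0.0729 and 0.166) and without the 4 libraries low in Ttr (adj. p = 0.0736).

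Nfkbie had 20.4, 26.5 and 29.3 CPM in the lowest, median and highest Ethanol animal, against 16.4, 19.5 and 29.6 CPM in Control animals. Every Ethanol animal exceeded the Control median, yet the highest of the 24 was Control X4768, and no Ethanol animal exceeded it. Control animals were the more variable, with a coefficient of variation of 9.55% in Ethanol and 18.8% in Control. Ethanol exceeded Control by a log2 fold change of 0.28 (SE 0.08, adj. p = 0.0189), and it passed in all 24 fits without 1 animal but not without run 1, 3 or 5 of the animal numbers (adj. p between 0.0554 and 0.0707). The means of the 2 Ethanol animals were 24.4, 24.3 and 24.3 CPM in runs 1 to 3 and 27.5, 27.7 and 27.5 CPM in runs 4 to 6, and those of the 2 Control animals were 19.5, 17.5 and 18.2 CPM and then 23.5, 21.8 and 27.6 CPM. Both groups thus had higher means in the later runs, although Control X4762 of run 5 was at 18.8 CPM. In run 6 the means were 27.5 CPM in Ethanol and 27.6 CPM in Control animals.

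Nfkbiz and Bcl3 encode IkB proteins of the nucleus, which act there as cofactors that shape the response of NF-kappaB target genes. Nfkbiz had 4.20, 5.73 and 11.5 CPM in the lowest, median and highest Ethanol animal, against 3.22, 4.44 and 5.82 CPM in Control animals. The groups overlapped, with 11 Ethanol animals over the Control median and 5 over every Control animal. The highest value was that of Ethanol X4760, and the next was 6.72 CPM. The log2 fold change was 0.42 (SE 0.13, adj. p = 0.0293), and 0.30 without that animal (adj. p = 0.0462). The call was lost without Control X4677 (adj. p = 0.0509), X4679 (adj. p = 0.0510), X4685 (adj. p = 0.0574) or X4686 (adj. p = 0.0541), without run 1 or 3 (adj. p = 0.0799 and 0.116), without a filter on low counts (adj. p = 0.0562) and without the 4 libraries low in Ttr (adj. p = 0.0718).

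Bcl3 was the scarcest of the 10 transcripts, with 7 to 63 counts per library, and had the largest fold change. It had 0.517, 1.12 and 2.31 CPM in the lowest, median and highest Ethanol animal, against 0.210, 0.664 and 1.25 CPM in Control animals. Of the Ethanol animals, 10 exceeded the Control median and 4 every Control animal. Its log2 fold change of 0.75 (SE 0.24, adj. p = 0.0346) dropped below significance in 10 of the 24 fits without 1 animal (Ethanol X4569, X4694, X4758 and X4760, Control X4571, X4677, X4679, X4686, X4695 and X4697), with adj. p between 0.0521 and 0.0674 and log2 fold changes between 0.62 and 0.72. It also did so without run 1, 3, 4 or 6 (adj. p between 0.0511 and 0.147) and without a filter on low counts (adj. p = 0.0628). Some of its exon sequence is shared with the antisense gene Gm16175.

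Tnfaip3 encodes A20, the ubiquitin-editing enzyme that shuts off signals upstream of IKK. It had 2.63, 3.78 and 6.38 CPM in the lowest, median and highest Ethanol animal, against 2.72, 3.64 and 4.28 CPM in Control animals. The lowest and the highest of all 24 values were from Ethanol animals, and 7 Ethanol animals exceeded the Control median. Its log2 fold change of 0.13 (SE 0.11, 95% interval -0.10 to 0.35, adj. p = 0.481) did not pass and was 0.04 without Ethanol X4760.

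Zfp36 encodes tristetraprolin, which binds AU-rich elements and speeds the decay of cytokine transcripts, among them that of Tnf. It had the smallest p of the 10 genes. Its level was 4.82, 6.08 and 9.14 CPM in the lowest, median and highest Ethanol animal, against 3.81, 4.45 and 5.32 CPM in Control animals. Each of the 12 Ethanol animals exceeded the Control median and 11 exceeded every Control animal, with only Ethanol X4681 inside the Control range. Full separation of the groups was seen in 0.124% of all genes tested, and in none of the 10 genes. The log2 fold change was 0.50 (SE 0.09, adj. p = 0.000369), or 41.4% in the means. Over the 39 alternatives it stayed between 0.43 and 0.56, with adj. p of at most 0.00289. Its exons overlap those of the antisense gene Gm44710.

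The animals differed in how many of the 10 genes were raised. The number of genes above the Control median was 6 to 10 in Ethanol animals (median 9) and 2 to 8 in Control animals (median 6). At least 7 genes lay above it in 9 Ethanol and 2 Control animals. Ethanol X4760 held the highest of the 24 values in 6 genes (Nfkb2, Relb, Nfkbia, Nfkbiz, Tnfaip3 and Bcl3). Lcn2 was at 39.3 CPM in X4760. Its summed markers of microglia (455 CPM), blood leukocytes (12.7 CPM) and astrocytes and Bergmann glia (5242 CPM) were each the highest of the Ethanol animals. The leukocyte sum of Control X4762 was 12.2 CPM. The part of these cells in its values was not tested. Without this animal 3 of the 10 genes were called (Nfkbie, Nfkbiz and Zfp36).

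**Figure D3:**
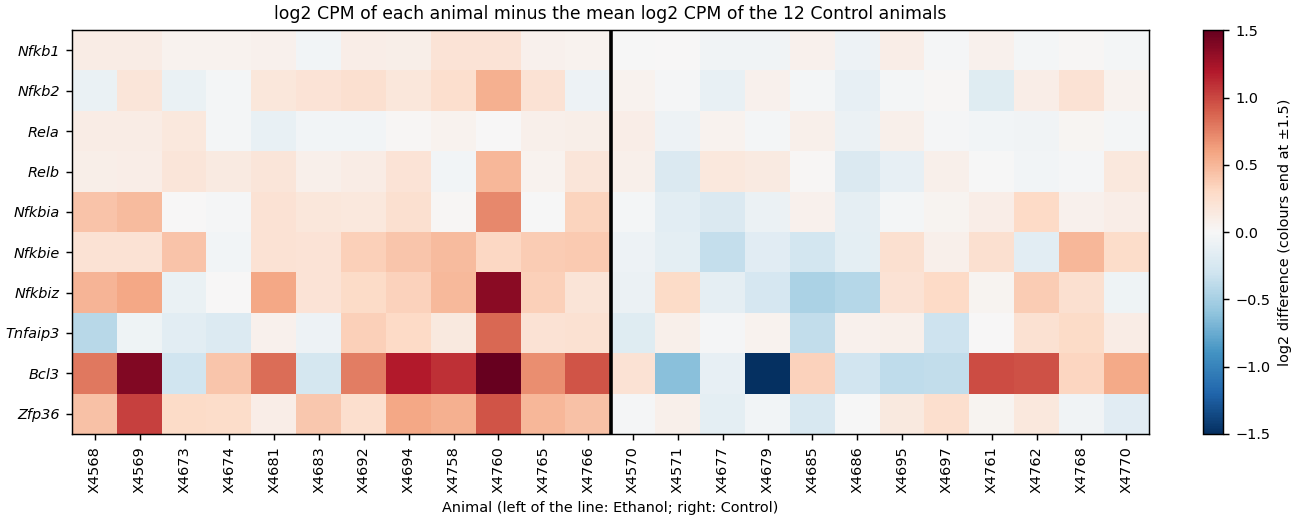
Log2 CPM of each gene (rows) in each animal (columns, Ethanol left of the line and Control right of it), as the difference from the mean of the 12 Control animals, with colours ending at ± 1.5. Zfp36 is red in every Ethanol animal, Bcl3 varies most in both groups, and the column of Ethanol X4760 is the darkest of the Ethanol columns.

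Within the 6 runs of animal numbers, 6 of the 10 genes (Nfkb1, Relb, Nfkbia, Nfkbiz, Bcl3 and Zfp36) were higher in Ethanol than in Control means in every run, which 11.2% of all genes tested were. The difference in mean log2 CPM was 0.21 to 0.70 for Zfp36 and 0.24 to 1.26 for Bcl3. For Nfkbia it was 0.55 in run 1 and 0.08 to 0.22 in the other runs, and for Nfkbiz it was 0.83 in run 3, 0.71 in run 5 and 0.06 in run 4. Nfkbie was higher in 5 runs and at 0.00 in run 6. Tnfaip3 was at -0.18 and -0.19 in runs 1 and 2 and at 0.44 and 0.39 in runs 4 and 5. Nfkb2 and Rela were higher in 4 runs each. With runs as a block, the same count of 6 genes was called. When run 1 was left out, only 1 of the 10 genes was called, and when run 3 was left out, 2 were. Without run 4, or without the 4 libraries low in Ttr, 3 were called.

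**Figure D4:**
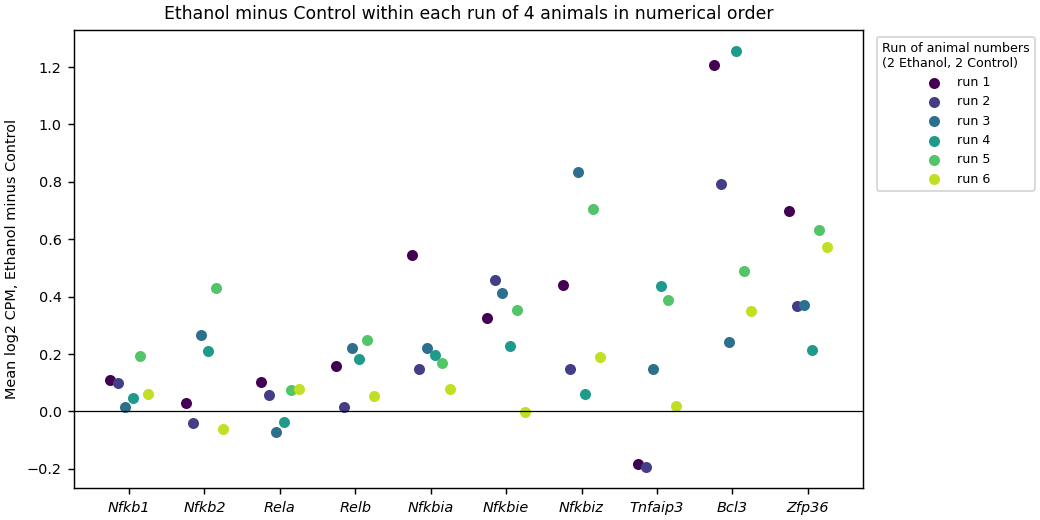
Difference in mean log2 CPM, Ethanol minus Control (vertical axis), for each gene within each of the 6 runs of 4 animals in numerical order, with 1 point per run. All points of Zfp36 lie above 0.2 and those of Bcl3 reach 1.26, while Tnfaip3 has points on both sides of the line at 0.

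Over the 24 animals and after the group means were removed, 41 of the 45 pairs of these genes had a positive correlation of log2 CPM, with a median r of 0.31. The animals share library depth and tissue makeup within each library, and run means were not removed, so these values are a description. The closest pairs were Nfkb2 with Tnfaip3 (r = 0.68, rho = 0.56), Nfkbia with Bcl3 (r = 0.66, rho = 0.72) and Nfkbiz with Zfp36 (r = 0.65, rho = 0.66). Without Ethanol X4760 they were at r = 0.50, 0.59 and 0.51, the median of all pairs was 0.17 and 35 pairs were positive. Rela had r = 0.28 to Nfkb1, the gene of its dimer partner, and the lowest values of all pairs, r = -0.31 to Tnfaip3 and -0.23 to Nfkb2.

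Of 15414 other genes (15415 for Bcl3), those whose group-centred log2 CPM followed a gene most closely over the 24 animals differed between the 6 genes past the test. Nfkbie had the highest values, with r = 0.91 to Smarcd2, 0.90 to Scrt2 and 0.88 to Lcat. Nfkbia went most closely with Slco2b1 (r = 0.83), Il1r1 (0.78), the receptor of interleukin-1, and Lcn2 (0.77). Bcl3 went with Csf2rb (0.84) and Fcgr3 (0.78), which are known from myeloid cells, and Zfp36 with Ms4a6c (0.77), Rnase4 (0.75) and Tlr2 (0.75). Nfkbiz went with Trip11 (0.80), Il4ra (0.78) and Ly6a (0.76), and Nfkb1 with 2610044O15Rik8 (0.70), Ist1 (0.66) and Tgds (0.65). Without Ethanol X4760, Nfkbia had r = 0.69 to Il1r1 and 0.68 to Lcn2. Nfkbiz then had 0.63 to Il4ra and 0.67 to Ly6a, and Zfp36 0.69 to Ms4a6c and 0.67 to Tlr2. The 3 genes given for Nfkbie stayed at 0.89 to 0.91. Run means were not removed here, so differences between runs are part of these values.

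The rest of the pathway was read from 5 lists with 77 genes, of which 76 were tested. Among them 17 were higher and 2 lower in Ethanol animals, with a median log2 fold change of 0.05. Over all 17736 genes tested, 9.07% were higher and 5.80% lower, the shares to set beside this and the later lists. Of the 4 other NF-kappaB and IkB proteins, 1 was called, the nuclear IkB gene Nfkbid with 2.79 ± 0.475 CPM in Ethanol and 2.30 ± 0.274 CPM in Control animals (log2 fold change 0.28, adj. p = 0.0403). Of 12 kinases of the IKK step, 1 was higher and 1 lower, close to the shares over all genes. Map3k14, which encodes the kinase NIK of the alternative pathway, was higher (log2 fold change 0.20, adj. p = 0.0118). Map3k7, which encodes TAK1, was lower (log2 fold change -0.09, adj. p = 0.0385).

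Receptors held the largest changes of the 5 lists, with 7 of 17 higher and 0 lower. Cd14, the coreceptor of bacterial lipopolysaccharide, had 2.02 ± 0.861 CPM in Ethanol and 0.843 ± 0.249 CPM in Control animals (log2 fold change 1.25, adj. p = 0.000169). Tlr1 (log2 fold change 0.56, adj. p = 0.00533), Tlr7 (0.38, adj. p = 0.0149) and Tnfrsf12a (0.35, adj. p = 0.00440) were higher as well. Of 26 adaptors and ubiquitin ligases, 5 were higher and 1 lower. Myd88, the adaptor of Toll-like and interleukin-1 receptors, was higher (log2 fold change 0.30, adj. p = 0.00360), as were Ticam1 (0.25, adj. p = 0.00559), Traf2 (0.23, adj. p = 0.00871) and Ripk1 (0.15, adj. p = 0.0139). Traf6, a ligase below Myd88, was lower (log2 fold change -0.22, adj. p = 0.00387). Of 17 other negative regulators tested, 3 were higher and 0 lower, namely N4bp1 (log2 fold change 0.24, adj. p = 0.000381), Itch (0.12, adj. p = 0.0189) and Tnfaip8l2 (0.54, adj. p = 0.0460). The calls of Nfkbid, Map3k7 and Tnfaip8l2 held in only 7, 17 and 9 of the 24 fits without 1 animal.

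Of 30 genes widely known as NF-kappaB targets, 18 had counts enough to be tested, 7 were higher and 0 lower, with a median log2 fold change of 0.17. The chemokine Ccl3 had 1.58 ± 0.668 CPM in Ethanol and 0.480 ± 0.270 CPM in Control animals (log2 fold change 1.73, adj. p = 0.000163), and Ccl2 had 0.690 ± 0.402 CPM in Ethanol and 0.246 ± 0.0920 CPM in Control animals (log2 fold change 1.46, adj. p = 0.000685). Ccl2 was scarcer than Bcl3 in both groups and near the floor in Control animals. It may have passed the filter on low counts mainly through the Ethanol group, which limits its call. Csf1, a growth factor of microglia, averaged 35.7 CPM in Ethanol and 25.3 CPM in Control animals (log2 fold change 0.50, SE 0.06, adj. p = 2.37e-05). The cytokines Tnf, Il1b and Il6 were among the 12 left out, with at most 0.807, 1.21 and 0.115 CPM in any library.

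**Figure D5:**
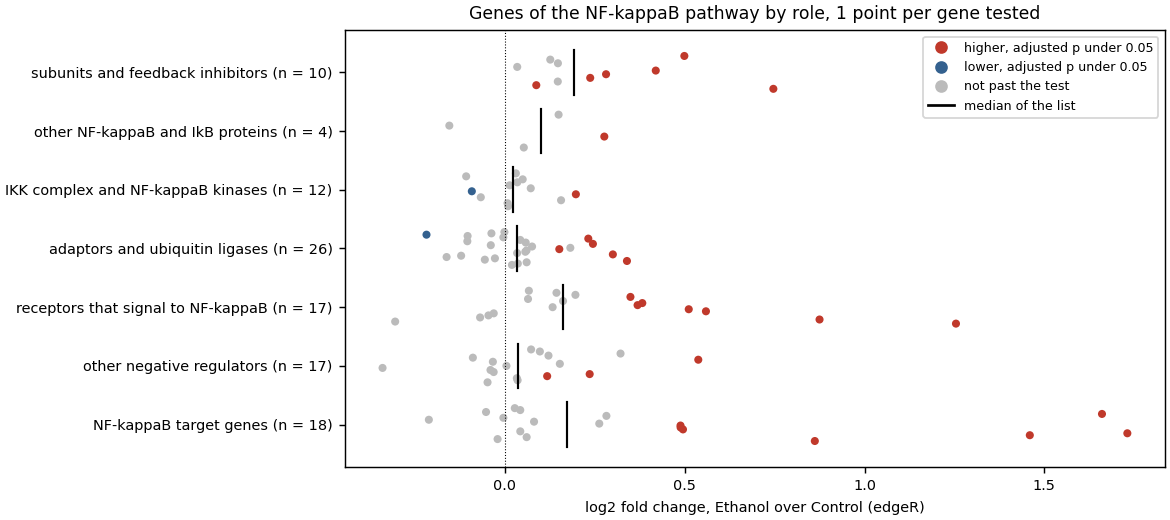
Log2 fold change of Ethanol over Control from edgeR (horizontal axis) for each gene tested, in rows by role in the pathway, with the median of each row as a vertical bar. The 10 subunits and feedback inhibitors have a median of 0.19 and receptors reach 1.25 (Cd14), while the kinases and adaptors have medians close to 0.

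Markers of the cells that could carry these transcripts moved too. The summed CPM of 18 microglia markers was 288 to 455 in Ethanol animals (median 320) and 250 to 356 in Control animals (median 269), with 7 markers higher and 2 lower. Higher ones included Tyrobp (log2 fold change 0.39, adj. p = 0.000305) and C1qb (0.55, adj. p = 0.00131), and the homeostatic genes Siglech (log2 fold change -0.77, adj. p = 4.28e-05) and P2ry12 (-0.53, adj. p = 0.0116) were lower. The 8 markers of border macrophages summed to 41.8 to 93.5 CPM in Ethanol and 37.7 to 57.7 CPM in Control animals, with 4 higher and 0 lower. The 12 of astrocytes and Bergmann glia summed to 4680 to 5242 CPM in Ethanol and 4250 to 4889 CPM in Control animals, with 5 higher and 2 lower. The 16 endothelial markers summed to 542 to 613 CPM in Ethanol and 608 to 680 CPM in Control animals, with 1 higher and 7 lower. Of 10 markers of pericytes and smooth muscle, 0 were higher and 2 lower.

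Although the animals were perfused, erythroid transcripts were present. Their 5 markers tested were all below 0 in log2 fold change (median -0.66), 0 passed, and the summed CPM of the list was 23.5 to 293 in Ethanol animals (median 65.7) and 62.9 to 251 in Control animals (median 123). White blood cells gave less signal. Only 4 of 12 leukocyte markers had counts enough to be tested, 0 passed, and the defining genes Ly6g and Cd3e reached at most 0.118 and 0.150 CPM in any library. The leukocyte list summed to between 1.57 and 12.7 CPM in Ethanol and between 1.79 and 12.2 CPM in Control animals. Of 12 choroid plexus and 10 oligodendrocyte markers 0 passed. Among the neurons, 3 of 12 markers of the granule lineage were higher and 1 lower, and 0 of 10 Purkinje cell markers were higher and 2 lower.

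Over the 24 animals, group means removed, the summed microglia markers went with Tnfaip3 (r = 0.73, rho = 0.63), Bcl3 (r = 0.65, rho = 0.59) and Nfkbiz (r = 0.61, rho = 0.41), and less so with Zfp36 (r = 0.41, rho = 0.37). Without Ethanol X4760 the r were 0.59, 0.58, 0.40 and 0.21. Nfkb2 (r = 0.59, rho = 0.52), Nfkbia (r = 0.52, rho = 0.36) and Nfkbie (r = 0.51, rho = 0.58) went with microglia markers too. Without X4760 these r were 0.41, 0.30 and 0.60. Bcl3 also went with the leukocyte markers (r = 0.72, rho = 0.73) and with those of astrocytes (r = 0.60, rho = 0.57). Bcl3 had its highest means in run 5 in both groups (1.83 CPM in Ethanol, 1.25 CPM in Control). The leukocyte sums of that run were 8.35 and 12.7 CPM in Ethanol and 11.2 and 12.2 CPM in Control animals. Nfkbia went with those of astrocytes (r = 0.64, rho = 0.64) and of leukocytes (r = 0.60, rho = 0.64). Nfkbie ran against the border macrophage markers (r = -0.63, rho = -0.67). Rela had r between -0.14 and 0.05 with the sums of these and of the endothelial markers. Run means were not removed, so differences between runs are part of these correlations, as are those between ages and litters. The part of microglia, macrophages, astrocytes and endothelium in the differences of the 10 genes was not tested.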

How the data were processed

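Per the labels and the study's methods, the authors ran the nf-core/rnaseq pipeline and deposited estimated counts for each gene. STAR, Salmon, limma and GRCm39 appear in the submitters' processing notes without versions. Neither annotation release nor strandedness is stated there. For their own tests the authors filtered low counts, scaled by TMM and used limma on log2 CPM. The sources name different homogenizers and RNA kits for these samples. As 10.9% of the deposited values differed by more than 0.01 from the nearest integer, all were rounded. Of 55416 rows, 1597 share a name with another and were kept apart.

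Groups came from the labels. With edgeR 4.0.16 in R 4.3.3, filterByExpr left 17736 genes, which were scaled by TMM and compared by glmQLFit (robust) and glmQLFTest with 22 residual degrees of freedom and Benjamini-Hochberg adjustment over all genes tested (adj. p under 0.05). The SE was derived from the F statistic. CPM are on TMM-scaled library sizes, and log2 CPM has a prior count of 2. Levels per kilobase and promoters come from a reference of another build than the files' and are approximate for them. The test was checked on counts simulated independently for each animal, without litters, ages or runs, so that check does not cover such dependence. Precision is limited at low counts and by the spread between animals.

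The members and lists were chosen with earlier results of these data known, so counts over them are descriptions. Named were all members, up to 4 genes of smallest p per direction in each other list, for each member past the test the 3 genes of highest correlation (mean log2 CPM of at least 0), and Ttr. A few genes that the rule names are not reported here. Il1b, Il6, Tnf, Lcn2, Ly6g, Cd3e, Psd, AC114539.1, Gm16175 and Gm44710 were added after their values were seen. Alternatives were limma-trend and limma-voom (limma 3.58.1), DESeq2 1.42.0, scaling by RLE or by upper quartiles, no filter, a filter of 1 CPM in 12 libraries, runs as a block, and leaving out each animal, each run or the 4 libraries low in Ttr.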

Additional observations from a re-analysis of the deposited data

How the results depend on the processing

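No fold change of the 10 genes turned round in any alternative. The count of 6 genes called higher was 6 with limma-trend, limma-voom, DESeq2, RLE factors and the runs as a block, 5 with upper-quartile factors, with the stricter filter (which removed Bcl3) and without run 2, 4 without run 5 or run 6, 3 without a filter on low counts, without run 4 and without the 4 libraries low in Ttr, 2 without run 3 and 1 without run 1. It was 2 to 6 when each animal was left out in turn. The count of genes called lower was 0 throughout. Subsets hold fewer animals and the unfiltered fit tests more genes. Over all genes, the 1608 higher and 1028 lower calls were 1268 to 1818 and 805 to 1438 when each animal was left out. Lower calls were 662 without a filter, 612 without the 4 libraries low in Ttr, 616 without run 1, 612 without run 3 and 499 without run 4. Upper-quartile scaling moved the share of calls that were higher to 49.6%, from 61.0% with TMM, where the cause was not tested. In the 5 pathway lists, the 17 higher calls were 10 without run 1 and 14 to 17 without 1 animal. The 2 lower calls were 4 with upper-quartile factors, 1 without a filter, without run 3 or without run 4, and 1 to 6 without 1 animal. The labels give no replicate number shared between the groups, so the only blocked fit was that on the runs, with 1982 higher and 1363 lower calls over all genes. Among the 10 genes, depth limits Bcl3 most, at 7 to 63 counts per library. It also limits Ccl2 and the cytokine genes that were not tested.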

Other observations

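Genes that respond early to many stimuli were higher in Ethanol animals in 7 of 15 cases and lower in 0, with a median log2 fold change of 0.22. Atf3, a stress-induced transcription factor, had 3.09 ± 0.740 CPM in Ethanol and 1.70 ± 0.323 CPM in Control animals (SD, n = 12 each, log2 fold change 0.86, edgeR adj. p = 5.45e-05). Myc was at 22.5 ± 2.55 CPM in Ethanol and 16.9 ± 1.55 CPM in Control animals (0.41, adj. p = 4.28e-05), and Junb (0.50, adj. p = 0.00583) and Btg2 (0.22, adj. p = 0.00647) were higher too.

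Of 15 genes of the STAT3 pathway, which shares inducers with NF-kappaB, 7 were higher and 0 lower, with a median of 0.21. Serpina3n had 17.1 ± 5.89 CPM in Ethanol and 5.43 ± 2.31 CPM in Control animals (1.66, adj. p = 5.06e-05), and Gfap, the intermediate filament of astrocytes, had 647 ± 103 CPM in Ethanol and 325 ± 124 CPM in Control animals (0.99, adj. p = 0.000643). Stat3 itself was higher (0.21, adj. p = 0.00192), as was the cytokine receptor Osmr (0.60, adj. p = 0.00551).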
